A study of Mus musculus with 2 samples.

Results

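Histone and DNA modifying enzymes were described in 2 gastroenteropancreatic neuroendocrine tumors, 1 metastatic and 1 primary. The members were chosen by symbol: histone lysine demethylases (KDM), the TET dioxygenases of DNA, lysine methyltransferases (KMT, SETD, NSD and EHMT), DNA methyltransferases (DNMT), arginine methyltransferases (PRMT), deacetylases (HDAC and SIRT), acetyltransferases (KAT) and bromodomain proteins (BRD). Antisense RNAs and pseudogenes of these genes were left out, and so was KDM5D. The rule found 89 members among 57011 entries of the expression table.

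Both tumors were carried as patient-derived xenografts in athymic nude mice (Foxn1nu), which lack T cells and keep other host cells such as fibroblasts, vessels and macrophages. The metastatic tumor grew in the peritoneal cavity and the primary tumor in the flank, so graft site and tumor origin cannot be told apart. Cells were pelleted after enzymatic dissociation, and total RNA was sequenced from 1 library per group. No spread between replicates can be given and no test was run, so every difference below describes 2 libraries. How many mice gave each pellet, and whether both tumors came from the same donor, is not stated, although the sample titles share a stem. The labels name mouse as the organism and the processing notes name the human build GRCh38.

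These enzymes set and remove the chemical marks by which chromatin is packed and read. Methyltransferases and acetyltransferases write marks on histone tails, demethylases and deacetylases take them off, and bromodomain proteins bind acetylated lysines. The DNMT enzymes methylate cytosine in DNA and the TET enzymes oxidise that methyl group. The Jumonji (JmjC) demethylases and TET enzymes need iron, oxygen and 2-oxoglutarate, sirtuins need NAD, and the methyltransferases draw on S-adenosylmethionine. In cancers several of these genes are recurrently mutated, and HDAC, EZH2 and BET inhibitors are used or tested as drugs.

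Levels are FPKM as deposited by the authors, a measure of mapped fragments divided by transcript length, so that levels may be set side by side between genes. What total each column was scaled to is not stated. The columns summed to 885319 FPKM in the metastatic and 784987 in the primary library; read depth is unknown. A gene counted as expressed at 1 FPKM or more in at least 1 library. Differences are given as log2 ratios, metastatic over primary, after adding 1 FPKM to both values, which understates differences of low genes. At least 2-fold means a log2 ratio of at least 1 in size on that scale. Of 12 neuroendocrine markers 7 were expressed with rows of their own, and their median log2 ratio was -0.98, the value of CHGB. CHGB, INSM1 and SCG2 reached 1 FPKM only in the primary library, so the filter fixed their direction. Chromogranin A (CHGA) had the value 0 in each tumor, and SYP (synaptophysin) stood at 1.96 FPKM in the metastatic and 1.63 in the primary tumor. PCSK1, INSM1 and SCG2 were past 2-fold on the lower side. PCSK1 stood at 2.74 FPKM in the metastatic and 19.9 in the primary tumor. INSM1 stood at 0.271 FPKM (metastatic) and 3.54 FPKM (primary), and SCG2 at 0.340 FPKM (metastatic) and 2.62 FPKM (primary). UCHL1 was past 2-fold on the higher side, at 705 FPKM (metastatic) and 225 FPKM (primary). DDC, with a log2 ratio of 1.08, was past it too, but not with both columns rescaled to the same sum. ENO2, in a merged locus, stood at 23.8 FPKM (metastatic) and 81.6 FPKM (primary). In such bulk samples fewer cells of a type and less RNA per cell cannot be told apart. Any removal of host reads is unknown, so mouse reads mapped to human symbols cannot be told apart from tumor reads either. Summed fibroblast markers stood at 160 FPKM in the metastatic and 523 in the primary tumor, of which COL1A2 gave 149 FPKM (metastatic) and 474 FPKM (primary), while DCN was higher in the metastatic tumor. Endothelial markers summed to 4.80 FPKM in the metastatic and 27.1 in the primary tumor, mostly EGFL7 and CLDN5. EGFL7 gave 1.58 FPKM (metastatic) and 19.1 FPKM (primary), and CLDN5 1.41 FPKM (metastatic) and 5.73 FPKM (primary). VWF and TEK, both under 1 FPKM, were higher in the metastatic tumor. Immune markers summed to 12.6 FPKM in the metastatic and 4.66 in the primary tumor, mostly LYZ, with CSF1R, CD14, PTPRC and the merged locus of CD163 (8.19 FPKM in the metastatic and 68.3 in the primary tumor) lower in the metastatic tumor. Hepatocyte markers summed to 718 FPKM in the metastatic and 300.0 in the primary tumor, mostly FGB, while CPS1 stood at 2.96 FPKM (metastatic) and 31.7 FPKM (primary). Expressed were 6 of 9 fibroblast markers, 3 of 8 endothelial, 2 of 7 immune and 6 of 7 hepatocyte markers; KDR and AIF1 were listed at 0 in both libraries, and PTPRC stood at 0.0403 FPKM (metastatic) and 0.111 FPKM (primary). The part of these cells in the values below was not tested.

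Of the 89 members 81 were expressed, and 70 of these had a row of their own. The other 11 members stood only in loci that the table merges with a neighbouring gene, so that their value cannot be assigned to the enzyme. The 8 members under the minimum were DNMT3L, HDAC9, KAT6B, KDM4E, KDM4F, EHMT2, PRMT8 and SIRT2. EHMT2, encoding an H3K9 methyltransferase, had 7 rows, and KAT6B and SIRT2 had 2 rows each, all at 0 in both libraries. HDAC9 stood at 0.0648 FPKM (metastatic) and 0.0756 FPKM (primary), and PRMT8 at 0.0235 FPKM in the metastatic and 0 in the primary tumor. LDHA, a gene used by nearly all cells, was also listed at 0 in both, so a listed 0 need not mean an absent transcript. BRD2 had 7 rows, 4 of them at 0, and its sum is therefore uncertain.

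Among the 81 expressed members 0 were at least 2-fold higher in the metastatic tumor, beside 9.22% of all 13811 expressed entries, and 9 were at least 2-fold lower, beside 9.35%. Counted in either direction the share among all entries was 18.6%. The 9 lower members were KDM3A, KDM4B, KDM4C, TET1, KMT5B, KMT5C, SETD5, HDAC5 and HDAC11, all with rows of their own. They make up 11.1% of the expressed members, near the share among all entries. The median log2 ratio was -0.19 over the 81 members, or -0.28 over the 70 with rows of their own, beside 0.03 over all entries. Ratios lay below 0 for 49 members, or 60.5%, beside 47.7% of all entries. With each column rescaled to the same sum, the median of all entries moved by -0.15 to -0.12, and 12 members were at least 2-fold lower, 14.8% beside 12.7% of all entries. Of the 81 members, 4 (KAT2B, KDM4D, KDM7A and TET2) passed the minimum only through the primary library, so their direction was fixed by the filter; without them 45 of 77 ratios lay below 0 and the median was -0.14.

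**Figure D1:**
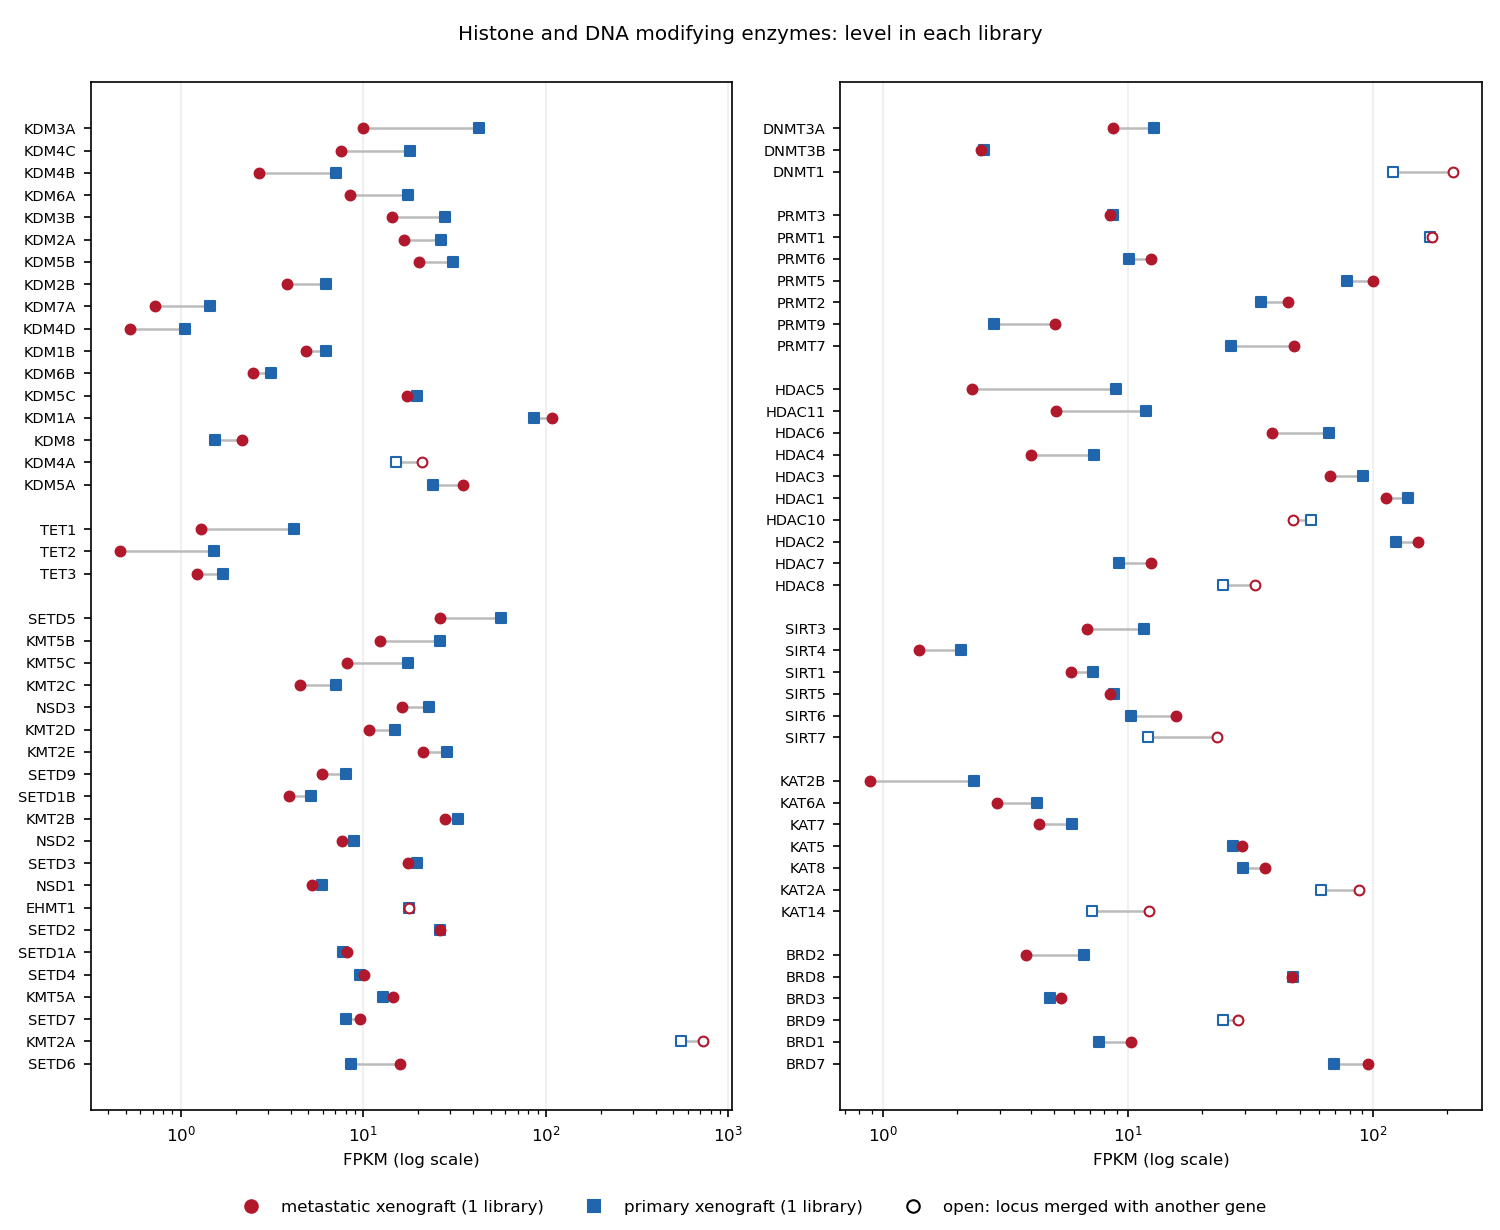
Level in FPKM (log axis) of the expressed members described in the text in the metastatic (circles) and primary (squares) library, grouped by enzyme class and sorted by log2 ratio; open symbols mark loci merged with another gene. KDM3A has the widest gap, at 10.01 FPKM in the metastatic and 42.9 in the primary tumor.

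Of 17 expressed KDM genes, 3 were at least 2-fold lower and 0 higher in the metastatic tumor, and 13 had a ratio below 0, with a class median of -0.50. This class median was the value of KDM7A, which, like KDM4D, passed the minimum only through the primary library. With KDM4D and KDM7A left out, 11 of 15 KDM ratios lay below 0 and the median was -0.59. The 14 JmjC demethylases with rows of their own had a median of -0.59, and 12 of them lay below 0. For 2 of the 12, KDM4D and KDM7A, the filter fixed the direction, and without them 10 of 12 lay below 0, with a median of -0.61. For the 17 JmjC and TET genes together the median was -0.59, beside -0.14 for the other 53 members with rows of their own. With both columns rescaled to the same sum these medians were -0.77 and -0.31. The filter fixed the direction of KDM4D, KDM7A and TET2 among the 17 and of KAT2B among the 53. Without these the medians were -0.61 over 14 genes and -0.14 over 52, or -0.78 and -0.31 with that rescaling. With the trend of transcript length removed the KDM median was -0.34 and the TET median -0.51, and KDM5C, KDM6B and TET3 lay above 0. No such median was taken over the 53. The KDM median with the length trend removed still included KDM4D and KDM7A, and the TET median was the value of TET2 itself. The filter thus bears on both.

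KDM3A, which removes methyl groups from H3K9, stood at 10.01 FPKM in the metastatic and 42.9 in the primary tumor, a log2 ratio of -2.00. Without the added 1 FPKM its level was 4.29-fold higher in the primary tumor, and in rank it stood at percentile 50.0 of all expressed entries in the metastatic and 80.7 in the primary tumor. KDM3B, its paralog, stood at 14.3 FPKM in the metastatic and 28.1 in the primary tumor, a log2 ratio of -0.93. Thus KDM3A gave 41.1% of the KDM3 FPKM in the metastatic and 60.5% in the primary tumor, so that KDM3B was the more abundant paralog in the metastatic tumor and KDM3A in the primary tumor.

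Of the KDM4 genes, KDM4A, KDM4B and KDM4C encode demethylases of H3K9 and H3K36. KDM4C stood at 7.53 FPKM in the metastatic and 17.9 in the primary tumor, a log2 ratio of -1.15. KDM4B stood at 2.67 FPKM (metastatic) and 7.06 FPKM (primary), a log2 ratio of -1.14. Both were thus lower by a similar factor, while their shares within the group of KDM4B, KDM4C and KDM4D were alike in the libraries, with KDM4C at 70.2% in the metastatic and 68.8% in the primary tumor. KDM4D was low, at 0.528 FPKM in the metastatic and 1.06 in the primary tumor. KDM4A was read only with ST3GAL3 in a merged locus, at 20.9 FPKM in the metastatic and 15.1 in the primary tumor.

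KDM3A, KDM4B and KDM4C are known in human cells as targets of the hypoxia-inducible factors. A list of 13 other hypoxia response genes was lower in the metastatic tumor. All 11 with rows of their own were at least 2-fold lower, with a median of -1.79 and log2 ratios between -4.74 and -1.18. The lowest ratio was that of EGLN3, at 0.741 FPKM in the metastatic and 45.4 in the primary tumor. EGLN3 passed the minimum only through the primary library, so the filter fixed its direction. CA9, a carbonic anhydrase, stood at 3.83 FPKM in the metastatic and 97.7 in the primary tumor. Of the 2 read in merged loci, PFKFB4 stood at 3.38 FPKM (metastatic) and 12.0 FPKM (primary), and EGLN1 went the other way at 169 FPKM in the metastatic and 99.5 in the primary tumor. That this list moves with the demethylases is a measurement on the same 2 libraries, and its part in their values was not tested.

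The H3K27 demethylases KDM6A and KDM6B were lower or little different. KDM6A (UTX) stood at 8.47 FPKM in the metastatic and 17.5 in the primary tumor, a log2 ratio of -0.96, just short of the 2-fold threshold. KDM6B stood at 2.48 FPKM (metastatic) and 3.12 FPKM (primary), a log2 ratio of -0.24. The H3K36 demethylases KDM2A and KDM2B had log2 ratios of -0.63 and -0.59. KDM2A stood at 16.7 FPKM in the metastatic and 26.5 in the primary tumor, and KDM2B at 3.82 FPKM (metastatic) and 6.26 FPKM (primary).

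The H3K4 demethylases KDM5A, KDM5B and KDM5C went both ways while their sum hardly differed. KDM5A stood at 35.2 FPKM in the metastatic and 24.0 in the primary tumor, a log2 ratio of 0.53. KDM5B stood at 20.1 FPKM in the metastatic and 30.8 in the primary tumor, a log2 ratio of -0.59. KDM5C stood at 17.3 FPKM (metastatic) and 19.8 FPKM (primary). The 3 genes summed to 72.6 FPKM in the metastatic and 74.6 in the primary tumor, and the most abundant of them was KDM5A in the metastatic library, with 48.4% of the sum against 32.2% in the primary one. In the primary library it was KDM5B, with 27.7% of the sum in the metastatic and 41.3% in the primary library.

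The flavin-dependent demethylase KDM1A (LSD1), which acts on H3K4 without iron or 2-oxoglutarate, was the most abundant KDM gene in both tumors, at 108 FPKM in the metastatic and 86.5 in the primary tumor. KDM1B, the other flavin enzyme, stood at 4.86 FPKM (metastatic) and 6.27 FPKM (primary). Their log2 ratios were 0.32 and -0.31. Of the remaining genes, KDM8 stood at 2.17 FPKM in the metastatic and 1.55 in the primary tumor, and KDM7A at 0.723 FPKM (metastatic) and 1.44 FPKM (primary).

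All 3 TET genes were low in both tumors. TET1 stood at 1.29 FPKM in the metastatic and 4.18 in the primary tumor, a log2 ratio of -1.18. TET2 stood at 0.462 FPKM (metastatic) and 1.52 FPKM (primary), a log2 ratio of -0.79 on the scale with 1 FPKM added. Without the added 1 FPKM its level was 3.29-fold higher in the primary tumor. TET2 passed the minimum only through the primary library, so the filter fixed its direction. TET3 stood at 1.23 FPKM (metastatic) and 1.70 FPKM (primary), a log2 ratio of -0.27. Together they summed to 2.99 FPKM in the metastatic and 7.40 in the primary tumor. TET3 made up 41.2% of this sum in the metastatic and 22.9% in the primary tumor, next to TET1 with 43.3% in the metastatic and 56.5% in the primary tumor.

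**Figure D2:**
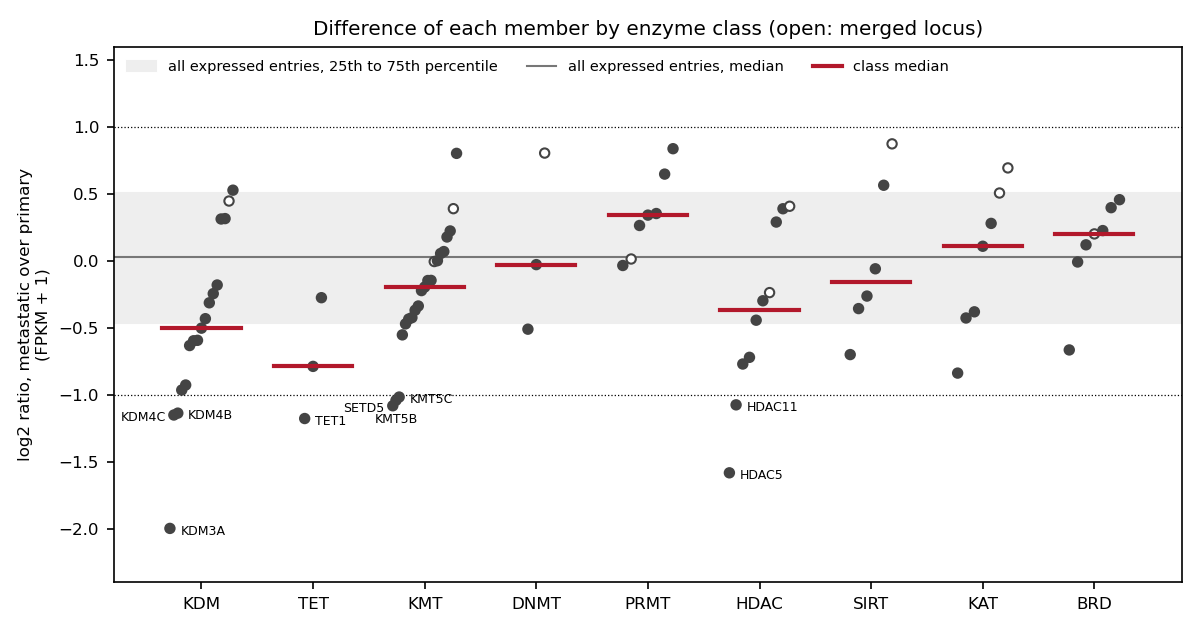
Log2 ratio, metastatic over primary, of each expressed member by enzyme class; red bars are class medians, the grey line and band are the median and the 25th to 75th percentile of all 13811 expressed entries, and dotted lines mark 2-fold. The 9 named genes lie below the lower dotted line, 0 members lie above the upper one, and the PRMT median lies at 0.34.

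Lysine methyltransferases were mostly within 2-fold. Of 21 expressed genes 3 were past 2-fold, all on the lower side, 14.3% beside 9.35% of all entries. The median was -0.19, or -0.35 with rescaling to the same sum. The 3 lower ones were SETD5 and the H4K20 methyltransferases KMT5B and KMT5C. SETD5, a gene of neurodevelopmental disorders, stood at 26.3 FPKM in the metastatic and 56.7 in the primary tumor, a log2 ratio of -1.08.

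The KMT5 enzymes methylate H4K20 in steps, KMT5A placing the first methyl group and KMT5B and KMT5C the further ones. KMT5B stood at 12.3 FPKM in the metastatic and 26.4 in the primary tumor, a log2 ratio of -1.04. KMT5C stood at 8.14 FPKM (metastatic) and 17.5 FPKM (primary), a log2 ratio of -1.02. KMT5A stood at 14.6 FPKM in the metastatic and 12.8 in the primary tumor, a log2 ratio of 0.18. It thus made up 41.6% of the KMT5 FPKM in the metastatic and 22.5% in the primary tumor, ahead of KMT5B in the metastatic library only.

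The H3K4 methyltransferases with rows of their own had a median of -0.28 over 6 genes. KMT2B was the most abundant among KMT2B, KMT2C and KMT2D, at 28.1 FPKM in the metastatic and 32.9 in the primary tumor. KMT2D stood at 10.8 FPKM (metastatic) and 14.9 FPKM (primary) and KMT2C at 4.49 FPKM (metastatic) and 7.04 FPKM (primary). Their log2 ratios were -0.22, -0.43 and -0.55, all within 2-fold. SETD1A stood at 8.13 FPKM in the metastatic and 7.78 in the primary tumor, SETD1B at 3.91 FPKM (metastatic) and 5.19 FPKM (primary), and SETD7, a monomethyltransferase, at 9.53 FPKM (metastatic) and 8.004 FPKM (primary). The ratio of SETD1A, at 0.06, changed sign with rescaling to the same sum. KMT2A was read only with ATP5MG, which encodes an ATP synthase subunit, at 725 FPKM in the metastatic and 553 in the primary tumor, so its own level is unknown. KMT2E, a relative without established methyltransferase activity, stood at 21.2 FPKM in the metastatic and 28.8 in the primary tumor.

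Among H3K36 methyltransferases SETD2, which places trimethylation along transcribed genes, stood at 26.4 FPKM in the metastatic and 26.3 in the primary tumor. NSD3 stood at 16.3 FPKM (metastatic) and 23.0 FPKM (primary), NSD2 at 7.64 FPKM (metastatic) and 8.88 FPKM (primary) and NSD1 at 5.25 FPKM (metastatic) and 5.90 FPKM (primary). The order NSD3, NSD2, NSD1 was thus the same in both libraries. The H3K9 enzyme EHMT1 was read with ARRDC1, at 17.9 FPKM in both tumors.

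Of the other SETD genes SETD6, which methylates the NF-kB subunit RELA, stood furthest on the higher side, at 15.8 FPKM in the metastatic and 8.60 in the primary tumor, a log2 ratio of 0.81. SETD3, a methyltransferase of actin, stood at 17.7 FPKM (metastatic) and 19.6 FPKM (primary). SETD4 stood at 10.1 FPKM in the metastatic and 9.60 in the primary tumor, and SETD9 at 5.97 FPKM (metastatic) and 7.98 FPKM (primary). The ratio of SETD4, at 0.07, lay below 0 with rescaling to the same sum.

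Of 3 expressed DNA methyltransferases 0 were past 2-fold. DNMT1, which copies methylation after replication, was read with S1PR2 in a merged locus, at 211 FPKM in the metastatic and 120 in the primary tumor, a log2 ratio of 0.81. Of the de novo enzymes DNMT3A stood at 8.69 FPKM in the metastatic and 12.8 in the primary tumor, a log2 ratio of -0.51, and DNMT3B at 2.52 FPKM (metastatic) and 2.58 FPKM (primary). A list of 14 proliferation genes had a median of 0.32, with 12 ratios above 0 and 2 below it. Past 2-fold on the higher side were 2 of the 14, MCM3 and PCNA, beside 9.22% of all entries. With rescaling to the same sum the list's median was 0.16, 5 ratios lay below 0, and PCNA, at 0.88, was no longer past 2-fold. PCNA, the sliding clamp that guides DNMT1 to the fork, stood at 168 FPKM in the metastatic and 80.7 in the primary tumor. The part of proliferation in the DNMT1 value was not tested.

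Arginine methyltransferases had the highest class median on the deposited scale, 0.34 over 7 expressed genes, and 6 of the 7 ratios lay above 0. It was 0.17 with rescaling to the same sum, and with the trend of transcript length removed it was 0.25, below the 0.41 of the bromodomain genes. PRMT7, which monomethylates arginine, stood at 47.6 FPKM in the metastatic and 26.2 in the primary tumor, a log2 ratio of 0.84. PRMT9 stood at 5.04 FPKM (metastatic) and 2.85 FPKM (primary), a log2 ratio of 0.65. PRMT5, the main enzyme of symmetric dimethylation, stood at 99.7 FPKM in the metastatic and 78.3 in the primary tumor, a log2 ratio of 0.34. PRMT2 stood at 44.8 FPKM (metastatic) and 34.8 FPKM (primary), PRMT6 at 12.4 FPKM (metastatic) and 10.1 FPKM (primary), and PRMT3 at 8.43 FPKM (metastatic) and 8.64 FPKM (primary). PRMT1 was read with ADM5, at 173 FPKM in the metastatic and 171 in the primary tumor, and its ratio of 0.02 changed sign with rescaling.

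Of the 4 partners of PRMT5 listed, 2 were past 2-fold, both on the higher side; with rescaling to the same sum it was 1. WDR77, the obligate partner of PRMT5 in its methylosome, stood at 75.2 FPKM in the metastatic and 26.9 in the primary tumor, a log2 ratio of 1.45. COPRS stood at 60.5 FPKM in the metastatic and 29.7 in the primary tumor, and RIOK1 at 26.9 FPKM (metastatic) and 14.9 FPKM (primary). CLNS1A, at 169 FPKM in the metastatic and 179 in the primary tumor, was within 2-fold. WDR77 thus differed more than PRMT5 itself on this scale.

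Histone deacetylases had a median of -0.37 over 10 expressed genes. Of these 2, HDAC5 and HDAC11, were past 2-fold on the lower side, 20% beside 9.35% of all entries. HDAC1, HDAC2 and HDAC3, the class I catalytic subunits of nuclear corepressor complexes, had the highest levels of the class. HDAC2 stood at 152 FPKM in the metastatic and 124 in the primary tumor, HDAC1 at 113 FPKM (metastatic) and 139 FPKM (primary), and HDAC3 at 66.9 FPKM (metastatic) and 91.1 FPKM (primary). HDAC2 was the most abundant of the 3 in the metastatic library, with 45.7% of their sum against 34.96% in the primary library. HDAC1, with 34.1% of the sum in the metastatic and 39.3% in the primary library, was the most abundant in the primary one. HDAC8 was read with CITED1, at 32.8 FPKM in the metastatic and 24.5 in the primary tumor.

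Class IIa enzymes shuttle between nucleus and cytoplasm and bind MEF2 factors. HDAC5 stood at 2.31 FPKM in the metastatic and 8.90 in the primary tumor, a log2 ratio of -1.58, the largest difference after KDM3A among the members. HDAC4 stood at 4.01 FPKM (metastatic) and 7.25 FPKM (primary), a log2 ratio of -0.72, and HDAC7 at 12.3 FPKM (metastatic) and 9.17 FPKM (primary), a log2 ratio of 0.39. HDAC7 therefore made up 66.1% of the class IIa FPKM in the metastatic and 36.2% in the primary tumor, where HDAC5 had 35.2%. HDAC6, a deacetylase of tubulin, stood at 38.5 FPKM in the metastatic and 66.3 in the primary tumor, a log2 ratio of -0.77. HDAC11, the single class IV member, stood at 5.08 FPKM (metastatic) and 11.8 FPKM (primary), a log2 ratio of -1.07. HDAC10 was read with MAPK12, at 47.2 FPKM in the metastatic and 55.8 in the primary tumor.

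Sirtuins had a median of -0.16 over 6 expressed genes, or -0.32 with rescaling to the same sum, and 0 of them were past 2-fold. The mitochondrial members lay below 0. SIRT3, the main mitochondrial deacetylase, stood at 6.77 FPKM in the metastatic and 11.6 in the primary tumor, SIRT4 at 1.41 FPKM (metastatic) and 2.07 FPKM (primary), and SIRT5 at 8.41 FPKM (metastatic) and 8.79 FPKM (primary). Of the nuclear members SIRT6 stood at 15.7 FPKM in the metastatic and 10.3 in the primary tumor, a log2 ratio of 0.57, and SIRT1 at 5.84 FPKM (metastatic) and 7.19 FPKM (primary). SIRT7 was read with MAFG, at 23.0 FPKM (metastatic) and 12.0 FPKM (primary).

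**Figure D3:**
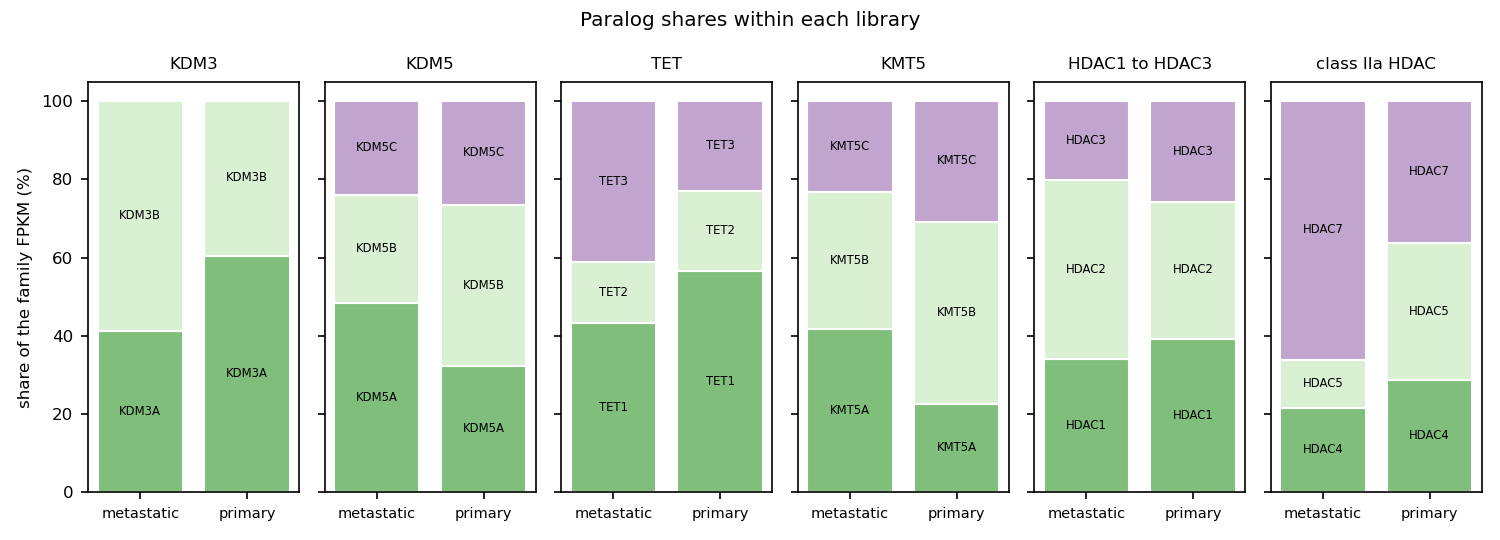
Share (%) of each paralog in the summed FPKM of its family, in the metastatic (left bar) and primary (right bar) library. Shown are 6 families whose members have rows of their own, with KDM5 taken without KDM5D. The most abundant member differs between the libraries for KDM3, KDM5, KMT5 and HDAC1 to HDAC3, and HDAC7 has 66.1% of the class IIa sum in the metastatic and 36.2% in the primary library.

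Acetyltransferases had a median of 0.11 over 7 expressed genes, of -0.38 over the 5 with rows of their own, of -0.13 over these without KAT2B, whose direction the filter fixed, and of -0.06 over the 7 with rescaling to the same sum, so the sign depended on these choices. KAT8, which acetylates H4K16, stood at 36.01 FPKM in the metastatic and 29.4 in the primary tumor. KAT5 (TIP60) stood at 29.0 FPKM (metastatic) and 26.8 FPKM (primary), with a ratio of 0.11 that lay below 0 with rescaling to the same sum. KAT7 stood at 4.32 FPKM in the metastatic and 5.91 in the primary tumor and KAT6A at 2.91 FPKM (metastatic) and 4.25 FPKM (primary). KAT2B (PCAF) stood at 0.881 FPKM (metastatic) and 2.36 FPKM (primary), 2.68-fold higher in the primary tumor without the added 1 FPKM. Its paralog KAT2A (GCN5) was read with RAB5C, at 87.7 FPKM in the metastatic and 61.3 in the primary tumor, and KAT14 with PET117 at 12.2 FPKM (metastatic) and 7.15 FPKM (primary). Of 9 acetyltransferases under other symbols 1 was past 2-fold, on the lower side, and the median was -0.64; with rescaling to the same sum 2 were, and the median was -0.81. EP300, the gene of the coactivator p300, stood at 6.16 FPKM in the metastatic and 15.7 in the primary tumor, a log2 ratio of -1.23, and its paralog CREBBP at 6.79 FPKM (metastatic) and 13.0 FPKM (primary).

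Bromodomain genes had a median of 0.20 over 7 genes, which was 0.04 with rescaling to the same sum, and 0 were 2-fold different. The BET proteins bind acetylated histones at active genes. BRD3 stood at 5.31 FPKM in the metastatic and 4.80 in the primary tumor, and its ratio changed sign with rescaling. BRD2, with its uncertain sum, stood at 3.82 FPKM (metastatic) and 6.63 FPKM (primary). Of the subunits of remodelling complexes BRD7 (PBAF) stood at 95.3 FPKM in the metastatic and 69.1 in the primary tumor, and BRD9 was read with ZDHHC11 at 28.2 FPKM (metastatic) and 24.3 FPKM (primary). BRD8 of the TIP60 complex stood at 46.6 FPKM (metastatic) and 46.8 FPKM (primary), and BRD1 at 10.3 FPKM (metastatic) and 7.57 FPKM (primary). Of 18 other expressed bromodomain genes 1 was past 2-fold, on the higher side, and the median was -0.25. With rescaling to the same sum 0 were past it on the higher side and 3 on the lower, and the median was -0.42. SMARCA4, a remodelling ATPase with a log2 ratio of 1.17, or 0.99 after that rescaling, stood at 519 FPKM in the metastatic and 231 in the primary tumor, and its paralog SMARCA2 stood at 67.9 FPKM (metastatic) and 130 FPKM (primary).

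Partner genes of these enzymes mostly lay within 2-fold, and so did most of all expressed entries. Among all 13811 entries the share past 2-fold, counting both directions, was 18.6%. Of 24 expressed subunits of HDAC corepressor complexes 2 were lower and 0 higher; the median of -0.14 was 0.02 with the length trend removed. RCOR1 (CoREST), which links KDM1A to HDAC1 and HDAC2, stood at 8.41 FPKM in the metastatic and 17.9 in the primary tumor. Of 30 subunits of acetyltransferase complexes 1 was lower and 0 higher, with a median of -0.23; ING3 was the lower one, at 6.31 FPKM in the metastatic and 15.2 in the primary tumor. Of 10 partners of the KMT2 complexes 1 was higher and 0 lower, a call lost under all 3 rescalings, and the median of 0.07 was -0.09 with rescaling to the same sum. CXXC1, the CpG-binding subunit of the SETD1 complexes, stood at 83.4 FPKM in the metastatic and 40.7 in the primary tumor, a log2 ratio of 1.02, or 0.85 with rescaling to the same sum.

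Further writers and erasers outside the symbol rule went both ways. Of 13 other lysine methyltransferases 2 were lower and 0 higher, and their median was -0.08, a sign that changed with the trend of transcript length removed. ASH1L, an H3K36 methyltransferase, stood at 6.24 FPKM in the metastatic and 27.3 in the primary tumor, a log2 ratio of -1.97, and SETDB2 stood at 1.04 FPKM (metastatic) and 3.23 FPKM (primary). Of 6 other JmjC genes 1 was higher and 0 lower, and the median was 0.35, or -0.09 with no minimum level; with rescaling to the same sum 1 was higher and 1 lower. JMJD6 stood at 35.3 FPKM in the metastatic and 11.2 in the primary tumor, a log2 ratio of 1.57, and PHF2 at 1.88 FPKM (metastatic) and 4.15 FPKM (primary), a log2 ratio of -0.84. Of these 6 genes 3 had a ratio below 0 and 3 above it. Of 10 partners and readers of DNA methylation 1 was lower and 0 higher, with a median of 0.13; with rescaling to the same sum 2 were lower and the median was -0.04. ZBTB38, a reader of methylated DNA, stood at 29.0 FPKM in the metastatic and 60.4 in the primary tumor.

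Of 16 expressed genes that supply or limit cofactors 1 was higher and 1 lower, with a median of 0.16 that was -0.0039 with rescaling to the same sum. Fumarate hydratase, encoded by FH, consumes fumarate, which competes with 2-oxoglutarate in these dioxygenases. FH stood at 88.5 FPKM in the metastatic and 34.3 in the primary tumor, a log2 ratio of 1.34. D2HGDH, which clears D-2-hydroxyglutarate, another such competitor, stood at 10.7 FPKM in the metastatic and 26.2 in the primary tumor, a log2 ratio of -1.22.

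**Figure D4:**
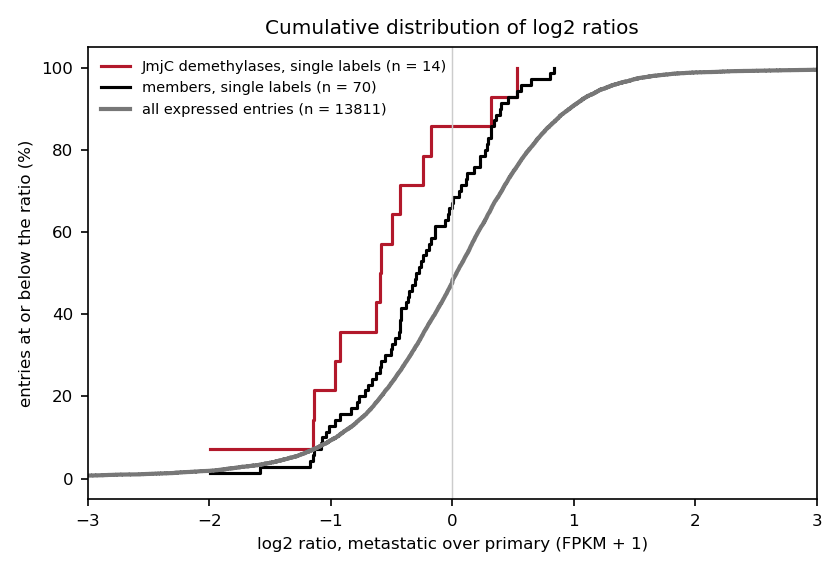
Cumulative share (%) of genes at or below each log2 ratio, metastatic over primary, for the 14 JmjC demethylases and the 70 members with rows of their own and for all 13811 expressed entries. The JmjC curve lies left of the others around its median of -0.59, and the members' curve ends at 0.84.

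Transcript length moved with the ratios. Lengths were those of mouse transcripts of the same symbol, found for 69 of the 70 members with rows of their own. Over 9337 genes, none of which is an independent replicate, the Spearman coefficient between length and log2 ratio was -0.27, and across the 69 members it was -0.33. The members were long, with a median of 4657 bases beside 3184 for all, and 68.1% of them were longer than that median of all genes. Among the 25% of genes with the longest transcripts the median log2 ratio was -0.43 over 34 members and -0.24 over all 2334 genes. With the trend of length removed, 6 of 69 members were at least 2-fold lower, 8.70% beside 8.35% of all genes, and the median over members was -0.13. KDM3A, KDM4B, KDM4C, KMT5C, HDAC5 and HDAC11 were the 6, with KDM3A at -1.78, while TET1 stood at -0.90, SETD5 at -0.82 and KMT5B at -0.78.

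**Figure D5:**
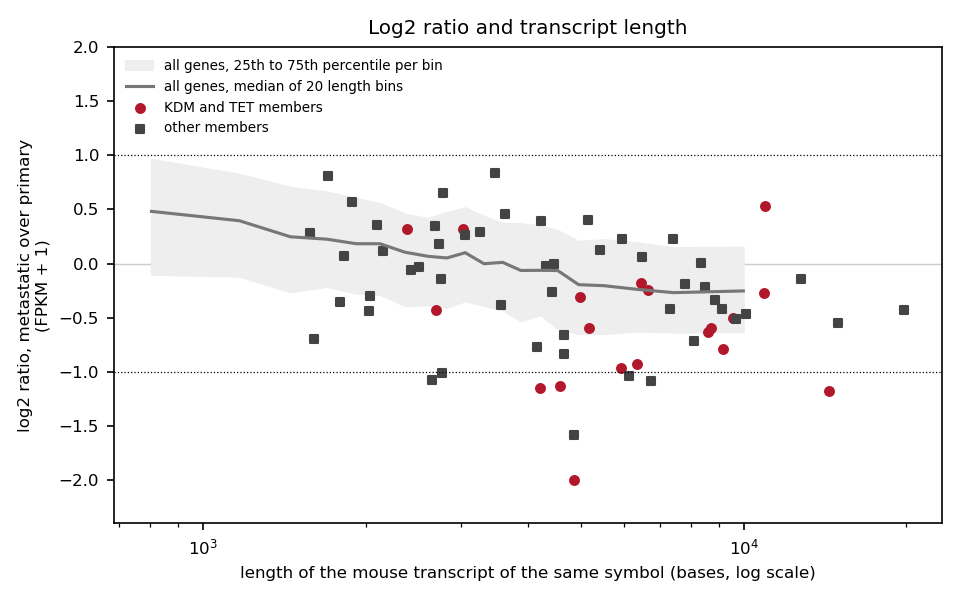
Log2 ratio, metastatic over primary, against the length in bases of the mouse transcript of the same symbol (log axis) for the 69 members with a length, with KDM and TET genes as red circles and the others as dark squares; the grey line and band are the median and the 25th to 75th percentile of 9337 genes in 20 length bins. The grey line falls with length, and KDM3A and HDAC5 lie furthest below it among the members.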

How the data were processed

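The authors deposited FPKM values of 1 metastatic and 1 primary library side by side, in 62573 rows. Per the submitters' processing notes, bcl2fastq 2.18.0.12, STAR 2.7.6a, Cufflinks 2.2.1 and build GRCh38 were used; the annotation, strand setting, filters and any removal of host reads are unknown here. Depth is unknown. Rows with the same label were summed, giving 57011 entries, of which 13811 reached 1 FPKM in a library. Log2 ratios were taken on the deposited scale after adding 1 FPKM, and no test was run. Members, classes and gene lists were chosen with earlier results of these data known. Every member is named except 1 that is not reported here; from each further list up to 4 genes with the largest absolute ratio were eligible. LDHA was chosen after its value was seen, as were the 6 families shown as paralog shares and the joint view of JmjC and TET genes. Length and GC content came from GENCODE mouse transcripts, since human ones were not used here. Steps were run in Python 3.11.15 with pandas 2.3.3 and numpy 2.4.6 and tested on simulated data. The table gives no coordinates, so none are printed.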

Additional observations from a re-analysis of the deposited data

How the results depend on the processing

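Each group holds 1 library, so leaving out a replicate was not possible, and no paired analysis was possible because each group holds 1 library. Pseudocounts of 0.1 and 0.5 FPKM, no filter, a filter of 5 FPKM, a 4-fold threshold, 3 rescalings, the highest row per label and leaving out merged loci were tried; removal of the length or GC trend, and leaving out members under the minimum in 1 library, were added after seeing the data. KDM3A, KDM4B, KDM4C, HDAC5 and HDAC11 stayed at least 2-fold lower in all 11 settings run at 2-fold. TET1 (-0.90), SETD5 (-0.82) and KMT5B (-0.78) lost 2-fold with the length trend removed, and KMT5C (-0.89) with the GC trend removed. KDM6A, KAT2B and TET2 passed 2-fold with the 0.1 pseudocount, and KDM3B, KDM6A and KAT2B with rescaling to the same sum. The count of members lower lay between 6 and 12 at 2-fold and was 0 at 4-fold, where 165 of all entries were higher and 259 lower. The median of members was -0.35 with rescaling to the same sum. That of TET genes was -1.53 with the 0.1 pseudocount, the value of TET2, whose direction the filter fixed. The KAT median changed sign in 4 settings and the DNMT median in 1; TET had no gene left at 5 FPKM, and the other class medians kept their sign in every setting run. The median of all entries was 0.0 without a filter, 0.082 with 5 FPKM (859 lower), and -0.12, -9.2e-05 and -0.048 rescaled to the same sum, by the median ratio and by the 75th percentile. With trends removed, fewer genes were tested: 577 were higher and 780 lower for length, 693 and 791 for GC content. The causes of the other moves were not tested. Genes of few FPKM, such as TET2 and KAT2B, depend most on the pseudocount, and their counting error is unknown.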

Other observations

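The table lists 12 antisense, divergent or intronic RNAs named after members, which the symbol rule leaves out, and 5 of them reached 1 FPKM in a library. KMT2E-AS1 stood at 4.50 FPKM in the metastatic and 1.34 in the primary tumor, while KMT2E itself stood at 21.2 FPKM (metastatic) and 28.8 FPKM (primary). HDAC4-AS1 stood at 3.20 FPKM (metastatic) and 4.35 FPKM (primary), KDM4A-AS1 at 2.65 FPKM (metastatic) and 2.22 FPKM (primary), BRD3OS at 3.86 FPKM (metastatic) and 3.71 FPKM (primary), and KDM7A-DT at 0.934 FPKM (metastatic) and 1.10 FPKM (primary). Without a stated strand setting, reads of a gene and of an RNA overlapping it cannot be told apart.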
